A study of Mus musculus with 8 samples.

Results

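Carbonic anhydrases were examined in RNA sequencing libraries of splenic CD8+ T cells. The genes described are *Car2*, its chromosome 3 relatives *Car1*, *Car3* and *Car13*, and the family members *Car5b*, *Car11* and *Car12*, found by symbol as 7 of the 48321 genes in the count tables, which hold 16 carbonic anhydrase genes in all. These 7 genes were picked on their counts scaled to library size (CPM) in the same libraries, so their levels and fold changes are given as a description without a test. The mice were C57BL/6, and the series describes floxed *Satb1* alleles with *E8I-cre*, a recombinase driver active in the mature CD8 lineage. SATB1 is a nuclear protein that organizes chromatin in T cells. Labels give 2 genotypes (WT, KO) and 2 times (day 0, day 5), with 2 libraries in each of the 4 groups, and the series title calls the cells in vitro stimulated. The labels do not say which of these alleles the WT mice carried, how old the mice were, whether animals were pooled, what the culture contained, or whether the 2 libraries of a group came from separate animals, so p-values measure only the spread between these libraries.

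Carbonic anhydrases are zinc enzymes that interconvert carbon dioxide and water with bicarbonate and a proton. The isozymes differ mainly in place. Some are cytosolic, some sit in mitochondria, some face the outside of the cell from the plasma membrane or are secreted, and a few related proteins lack the catalytic activity. They set intracellular and extracellular pH together with bicarbonate and proton transporters, and they supply bicarbonate to carboxylases. *Car2* encodes a fast cytosolic isozyme, best known from red cells, kidney and bone-resorbing osteoclasts.

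The start regions of *Car5b*, *Car12* and *Car9* are shown first, because these genes sit on different chromosomes and were all higher at day 5 than at day 0 in both genotypes. Each stretch runs 5′ to 3′ on the gene's strand from 250 bases before the start site to 50 bases after it (RefSeq, GRCm38.p6). The regions are chrX:164027961-164028260 on the minus strand for *Car5b*, chr9:66713436-66713735 on the plus strand for *Car12*, and chr4:43506776-43507075 on the plus strand for *Car9*, a membrane isozyme known for its induction by low oxygen. Capitals mark matches to ACGTG or GCGTG, the core letters bound by hypoxia-inducible factors, on either strand. *Car5b* held 5 matches, *Car9* held 1 and *Car12* held 0. Over all 32851 start regions of that length, 43.8% held at least 1 match and 1.66% held at least 5. A match describes letters only.
Car5b: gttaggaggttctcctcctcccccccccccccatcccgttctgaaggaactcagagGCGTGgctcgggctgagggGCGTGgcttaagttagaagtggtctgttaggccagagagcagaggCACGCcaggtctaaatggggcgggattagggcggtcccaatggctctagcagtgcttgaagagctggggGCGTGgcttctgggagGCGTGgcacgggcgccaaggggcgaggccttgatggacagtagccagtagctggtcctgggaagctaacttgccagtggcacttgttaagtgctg
Car12: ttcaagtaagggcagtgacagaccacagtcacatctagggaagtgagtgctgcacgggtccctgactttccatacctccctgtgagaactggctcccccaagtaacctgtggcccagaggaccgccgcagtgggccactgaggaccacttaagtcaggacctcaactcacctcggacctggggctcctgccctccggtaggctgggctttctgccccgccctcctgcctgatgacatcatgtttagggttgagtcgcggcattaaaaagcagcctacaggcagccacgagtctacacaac
Car9: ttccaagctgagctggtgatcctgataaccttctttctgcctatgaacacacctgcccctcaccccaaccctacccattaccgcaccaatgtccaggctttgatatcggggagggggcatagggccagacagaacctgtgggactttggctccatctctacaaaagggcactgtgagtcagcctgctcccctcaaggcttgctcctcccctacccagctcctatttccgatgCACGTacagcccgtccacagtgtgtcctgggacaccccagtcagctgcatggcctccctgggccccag
Of the 7 genes, *Car5b*, *Car11* and *Car12* had an entry in that table, and *Car2*, *Car1*, *Car3* and *Car13* had none.

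Gene counts summed to between 4170126 and 11117971 per library, with replicate 1 of the day 0 KO group the deepest, so that a single count stood for 0.0858 to 0.241 CPM. The targeted gene did not follow the label at day 0. *Satb1* (chromosome 17, 51736187 to 51833290, GRCm38) was measured at 97.8 and 91.6 CPM in WT and at 144 and 125 CPM in KO at day 0, and at 96.5 and 116 CPM in WT and 56.5 and 62.3 CPM in KO at day 5. Its log2 fold change was 0.51 (SE 0.15, FDR 0.125) at day 0 and -0.84 (SE 0.15, FDR 0.0162) at day 5 in the edgeR quasi-likelihood test, Benjamini-Hochberg adjusted. The day 5 call was lost without WT day 5 replicate 2 (FDR 0.0848), KO day 5 replicate 1 (FDR 0.174) or KO day 5 replicate 2 (FDR 0.156) in the same edgeR test. The KO groups are therefore called KO-labelled libraries, and whether the floxed exons were lost is not analysed here. The CD8 label was checked on its markers. *Cd3d*, *Cd3e*, *Cd8a* and *Cd8b1* together gave 7250 to 8210 CPM at day 0 and 4100 to 4670 CPM at day 5, while *Cd4*, *Zbtb7b* and *Cd40lg* together gave 1.36 to 6.26 CPM in any library.

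*Car2* (chromosome 3, 14886273 to 14900770, plus strand) had the widest range of the 16 carbonic anhydrases. At day 0 it had 65 and 36 counts, or 11.6 and 8.14 CPM, in WT and 7843 and 3675 counts, or 673 and 674 CPM, in the KO-labelled libraries. At day 5 it had 5 and 4 counts, or 0.882 and 0.964 CPM, in WT and 63 and 51 counts, or 11.6 and 9.66 CPM, in the KO-labelled libraries. The day 0 KO libraries stood above all others, the day 5 WT libraries stood below all others, and the day 0 WT and day 5 KO libraries overlapped. The group means were 9.88 ± 2.47 CPM (SD, n = 2) in WT and 674 ± 1.13 CPM in the KO-labelled libraries at day 0, and 0.923 ± 0.058 and 10.6 ± 1.37 CPM at day 5.

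The ratio of mean *Car2* level in the KO-labelled libraries to that in WT was 68.2 at day 0 and 11.5 at day 5. For summed levels the ratio was 66.8 (95% counting interval 54.9 to 82) at day 0 and 11.6 (interval 5.9 to 26) at day 5. The mean was 10.7 times higher at day 0 than at day 5 in WT and 63.4 times higher in the KO-labelled libraries. The counting intervals of these ratios, from summed levels, were 5.57 to 24.8 in WT and 52.6 to 76.8 in the KO-labelled libraries. Thus *Car2* was lower after culture in both genotypes and higher in the KO-labelled libraries on both days. The mean of the KO-labelled libraries at day 5 was 1.07 times that of WT at day 0. On the log2 scale of the fit, the difference of the KO-labelled libraries from WT was 6.07 (SE 0.18) at day 0 and 3.51 (SE 0.32) at day 5. The difference of day 5 from day 0 was -3.42 (SE 0.33) in WT and -5.98 (SE 0.18) in the KO-labelled libraries. The genotype difference at day 5 minus that at day 0 was -2.56 (SE 0.53). These SEs were derived from the F statistic of the test. They can lie below counting error where counts are few, as with the 9 counts of WT at day 5. In bulk samples, fewer cells with a transcript and less of it per cell cannot be told apart.

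The level of *Car2* per kilobase of exon was also compared with that of other genes. Only tested genes with an exon length in the annotation were ranked. In the KO-labelled libraries at day 0 its mean was 278 CPM per kb, which ranked 159 among those genes and stood above 98.7% of them. In WT at day 0 the mean was 4.08 CPM per kb, above 47.2% of the ranked genes. At day 5 it was 0.381 CPM per kb in WT, above 7.19% of the ranked genes, and 4.39 CPM per kb in the KO-labelled libraries, above 47.8%. *Car2* therefore lay near the middle of the ranked genes in WT before culture and in the KO-labelled libraries after it, and among the most abundant transcripts in the KO-labelled libraries at day 0.

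Over all tested genes, the share called was 1.80% for KO against WT at day 0, 1.63% at day 5, 48.3% for day 5 against day 0 in WT, 50.2% in the KO-labelled libraries and 0.159% for the genotype by day term. A call is an FDR under 0.05. Of the 7 genes, 3 passed the filter on low counts, namely *Car2*, *Car5b* and *Car12*, and *Car5b* passed only through its day 5 libraries. Of these 3, 1 lay past the threshold at day 0, 2 at day 5, 3 in each culture comparison and 0 in the genotype by day term. The genes were chosen on these contrasts, so nothing is read from those counts.

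**Figure D1:**
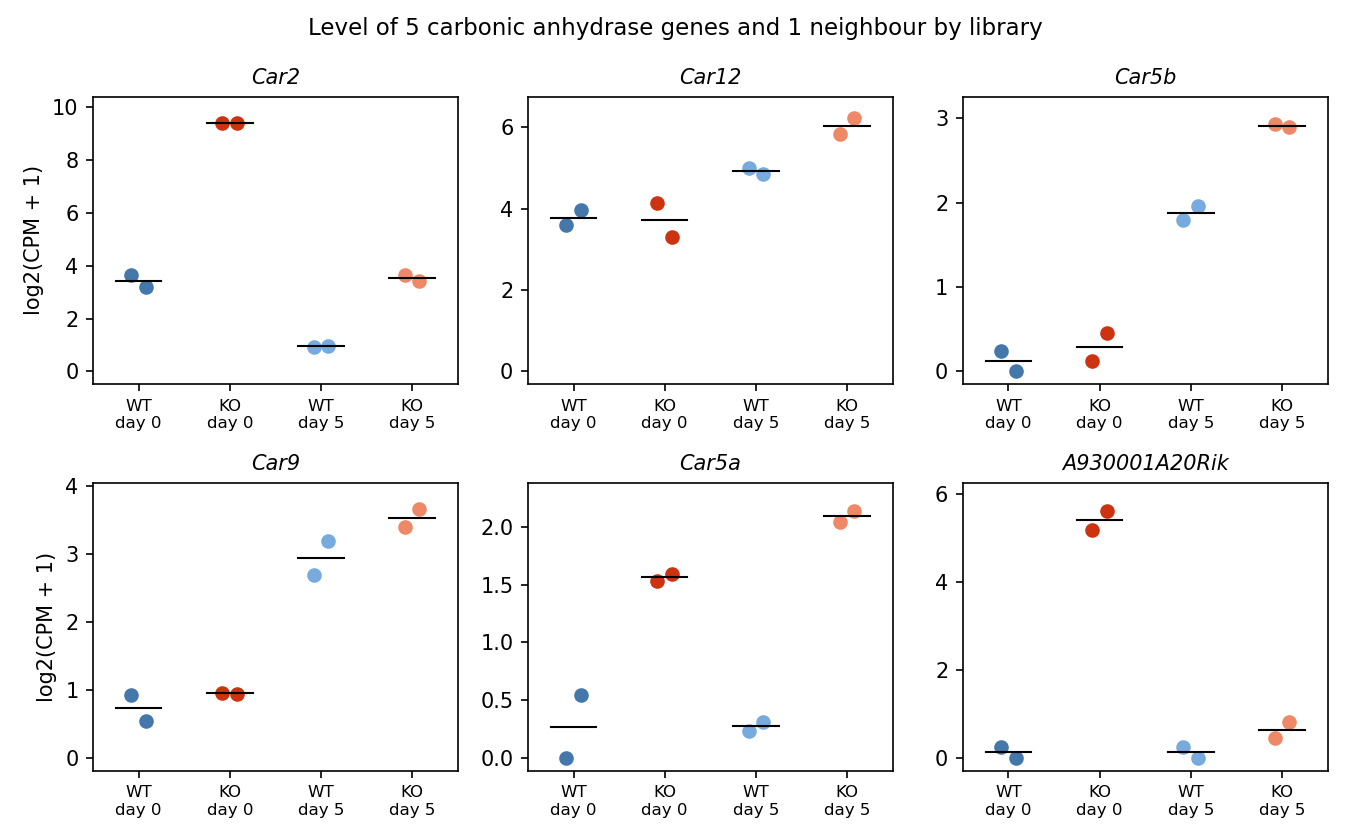
Level of *Car2*, *Car12*, *Car5b*, *Car9*, *Car5a* and *A930001A20Rik* in each library, as log2(CPM + 1) on the vertical axis of each panel, with the 4 groups on the horizontal axis (KO: the KO-labelled libraries). Points are libraries and bars the mean of the 2 points. *Car2* and *A930001A20Rik* are highest in the KO-labelled libraries at day 0 (673 and 674 CPM for *Car2*, 35.2 and 48.4 CPM for *A930001A20Rik*), whereas *Car12*, *Car5b* and *Car9* are highest at day 5.

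Markers of other cell types were summed beside *Car2*. Of 12 red cell markers 9 were in the table and 8 had a count in any library, and together these gave 1.25 and 1.36 CPM in WT and 0.858 and 2.75 CPM in the KO-labelled libraries at day 0. At day 5 they gave 1.20 to 1.41 CPM. The summed red cell transcripts were thus near 0 in the day 0 KO-labelled libraries, where *Car2* was at 673 and 674 CPM. Platelet markers gave 0 to 2.75 CPM, natural killer markers 0.772 to 4.76 CPM and mast cell and basophil markers 1.59 to 8.43 CPM in any library, with *Fcer1a* at 0. Myeloid markers gave 13.2 and 21.9 CPM in WT and 12.7 and 20 CPM in the KO-labelled libraries at day 0, and 34.7 to 73.6 CPM at day 5, with *S100a9* at 0. The higher day 5 sum came from *Cd68*, whose group means went from 2.92 to 33.9 CPM in WT and from 3.68 to 57.4 CPM in the KO-labelled libraries. The means of *Csf1r* went from 8.49 to 3.69 and from 9.69 to 4.21 CPM, and those of *Itgam* from 4.21 to 0.506 and from 2.31 to 1.30 CPM.

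The sums of other marker lists were higher in the KO-labelled libraries at day 0 without overlap. B cell markers gave 125 and 124 CPM in WT and 144 and 168 CPM in the KO-labelled libraries, nearly all of it from *Cd79b* at 122 and 118 against 141 and 164 CPM (FDR 0.262 in edgeR). The mean of *Cd79a* was 1.67 CPM in WT and 1.22 CPM in the KO-labelled libraries, and those of *Ebf1* and *Pax5* were also lower in the latter, at 1.35 against 0.949 and 0.655 against 0.459 CPM. CD4 T cell markers gave 3.58 and 1.36 against 6.26 and 6.06 CPM, most of the latter from *Cd40lg* (FDR 0.134 in edgeR). The 5 regulatory T cell markers gave 336 and 317 CPM in WT and 458 and 492 CPM in the KO-labelled libraries. Of these, *Foxp3* (log2 fold change 2.48, SE 0.34, FDR 0.00271), *Ikzf2* (2.21, SE 0.29, FDR 0.00198) and *Ctla4* (3.40, SE 0.32, FDR 0.000106) were called higher in edgeR with Benjamini-Hochberg adjustment, 3 of 5 beside 1.80% of all tested genes. *Tnfrsf18*, which gave most of the sum, and *Il2ra* were not called (0.07, SE 0.14, FDR 0.877, and 1.30, SE 0.38, FDR 0.133, in edgeR). Genes on the same strand overlap 18.64% of the exons of *Foxp3*, and genes on the other strand 18.7%. Without WT day 0 replicate 1 the FDR was 0.0923 for *Foxp3* and 0.0741 for *Ikzf2*, and without WT day 0 replicate 2 it was 0.0602 and 0.0555, in the same edgeR test. *Cd4* itself stood at 0 and 0.226 CPM in WT and 0.6 and 0.918 CPM in the KO-labelled libraries at day 0, on 1 and 12 counts. The mean of *Zbtb7b* ran the other way, at 0.984 CPM in WT and 0.642 CPM in the KO-labelled libraries. The part of any of these lists in the level of *Car2* was not tested. At day 5 the summed regulatory T cell markers overlapped between genotypes, at 4240 and 3550 CPM in WT and 3540 and 4270 CPM in the KO-labelled libraries. Of the 5, *Foxp3* alone was called there, beside 1.63% of all tested genes, and was higher in the KO-labelled libraries by 1.73 (SE 0.32, FDR 0.0193 in edgeR; 1.25 to 2.56 over the alternatives). The values of *Il2ra*, *Ctla4*, *Ikzf2* and *Tnfrsf18* were -0.11, -0.07, 0.05 and 0.11. *Cd8a* was higher at day 5 by 0.60 (SE 0.11, FDR 0.0155) in the edgeR fit. *Foxp3* lost its day 5 call without any single library except those labelled KO at day 0 and WT day 5 replicate 1 (FDR 0.0518 to 0.174 in edgeR), and *Cd8a* lost its call without KO day 5 replicate 1 (FDR 0.129) or replicate 2 (FDR 0.126) and in a fit of the 4 day 5 libraries alone (FDR 0.0593).

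The neighbors of *Car2* were examined to see whether other transcripts of the region shared its pattern. The neighbors *Car1*, *Car3* and *Car13* were part of the choice of genes, and earlier results of these data were known. Within 1000 kb of either end of *Car2* the GENCODE M21 annotation lists 28 genes, of which 3 are carbonic anhydrases and 25 are others. Of these 25, 18 had a count and 5 passed the filter on low counts. At day 0, 1 of the 5 was called between genotypes, beside 1.80% of all tested genes, and that gene had passed the filter only through the KO-labelled libraries. It was *A930001A20Rik*, a long intergenic noncoding RNA (chromosome 3, 14971201 to 15002727, plus strand) that starts 70.4 kb past the end of *Car2* on the same strand.

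*A930001A20Rik* had 1 and 0 counts in WT and 410 and 264 counts, or 35.2 and 48.4 CPM, in the KO-labelled libraries at day 0. Its day 5 counts were 1 and 0 in WT and 2 and 4, or 0.368 and 0.757 CPM, in the KO-labelled libraries. The transcript was abundant only in the day 0 KO-labelled libraries, with no overlap with any other group. The summed level in the KO-labelled libraries was 395 times that of WT at day 0, with a 95% counting interval of 70.6 to 15600. The fitted log2 fold change, which depends on the prior count, was 8.43 (SE 0.56, FDR 8.19e-06, edgeR quasi-likelihood test, Benjamini-Hochberg adjusted). In the 14 alternative edgeR and DESeq2 fits it ranged from 7.70 without WT day 0 replicate 2 to 10.96 without WT day 0 replicate 1, with an FDR of 2.54e-43 to 0.000652. As the gene was tested only through the libraries in which it was high, nothing further is read from this range.

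In the KO-labelled libraries *A930001A20Rik* fell by 6.16 on the log2 scale from day 0 to day 5 (SE 0.43, FDR 1.63e-07, edgeR with Benjamini-Hochberg adjustment), a ratio of summed levels of 70.4 with a 95% counting interval of 32.2 to 192. The gene entered this test only through the day 0 KO-labelled libraries, the high side of the comparison, so the FDR is not read as support. The difference between genotypes at day 5 did not pass (2.25, SE 1.14, FDR 0.411), and neither did the genotype by day term (-6.19, SE 2.40, FDR 0.331) in the same edgeR fit. Its log2 CPM over the 8 libraries had a Pearson correlation of 0.94 with that of *Car2*, rank 36 among 12596 genes. The points of that correlation share libraries and group structure. As the lincRNA was tested only through the libraries in which *Car2* was highest, a high value was to be had from that alone, and nothing is read from it. Among the other tested neighbors the correlation was 0.94 for *Gm7132* (rank 34), 0.467 for *E2f5*, -0.146 for *Lrrcc1* and -0.196 for *1810022K09Rik*. Per kilobase of exon the lincRNA stood at 30.6 CPM per kb in the KO-labelled libraries at day 0, where *Car2* stood at 278 CPM per kb.

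*Gm7132*, a processed pseudogene on the other strand, overlaps *A930001A20Rik* over 6.81% of its own exon length, and as the strand setting of the counting is not given in the sources used here, reads of the shared stretch cannot be told apart. It had 1 and 0 counts in WT and 25 and 18 counts in the KO-labelled libraries at day 0, and 0 to 1 count at day 5, so it passed the filter only through the day 0 KO-labelled libraries. The day 0 difference did not pass (FDR 0.069 in edgeR), except without the filter on low counts (4.52, SE 1.08, FDR 0.00437 in edgeR), where 2 of these 5 neighbors were thus called. Its decrease from day 0 to day 5 in the KO-labelled libraries did (-4.55, SE 1.07, FDR 0.00412), except without KO day 5 replicate 1 (FDR 0.0666 in edgeR).

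The other tested neighbors were not called between genotypes. *Lrrcc1*, which encodes a centrosomal protein, stood at 22.9 and 34.6 CPM in WT and 38.3 and 41.3 CPM in the KO-labelled libraries at day 0, a difference that did not pass (0.48, SE 0.21, FDR 0.335 in edgeR), although the groups did not overlap. *E2f5*, a transcription factor of the cell cycle, stood at 12.7 and 8.14 CPM in WT and 12.3 and 13.6 CPM in the KO-labelled libraries (0.29, SE 0.28, FDR 0.738 in edgeR). *1810022K09Rik* stood at 146 and 114 against 118 and 130 CPM (-0.08, SE 0.14, FDR 0.879 in edgeR). At an unadjusted edgeR p under 0.05, 3 of the 5 neighbors passed at day 0 (*A930001A20Rik*, *Gm7132* and *Lrrcc1*), beside 13.8% of all tested genes, and 2 in the genotype by day term (*A930001A20Rik* and *E2f5*), beside 12.4%. The genotype by day term was called for 0 of the 5 in edgeR, beside 0.159% of all tested genes, and for 0 in DESeq2, which gave no adjusted p for 3. At day 5, 0 of the 5 tested neighbors were called between genotypes, beside 1.63% of all tested genes, 0 had an unadjusted edgeR p under 0.05, beside 14.1%, and DESeq2, without an adjusted p for 1, called 0. In culture *Lrrcc1* was called higher in WT (0.69, SE 0.21, FDR 0.018) and *E2f5* lower in the KO-labelled libraries (7.17 and 5.68 CPM at day 5, SE of the log2 fold change 0.29, FDR 0.013) in edgeR. *Lrrcc1* lost that call with scaling by library totals (FDR 0.0575), without WT day 0 replicate 1 (FDR 0.179) and without WT day 5 replicate 2 (FDR 0.0996), and *E2f5* without KO day 5 replicate 2 (FDR 0.111). The remaining 13 neighbors with a count, *Ralyl*, *Gm22026*, *Gm6300*, *Gm37358*, *Gm8955*, *Slc7a12*, *Gm8957*, *Gm16399*, *Gm33819*, *Sirpb1a*, *Gm37468*, *Sirpb1c* and *Gm6321*, had at most 3 counts in any library.

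**Figure D2:**
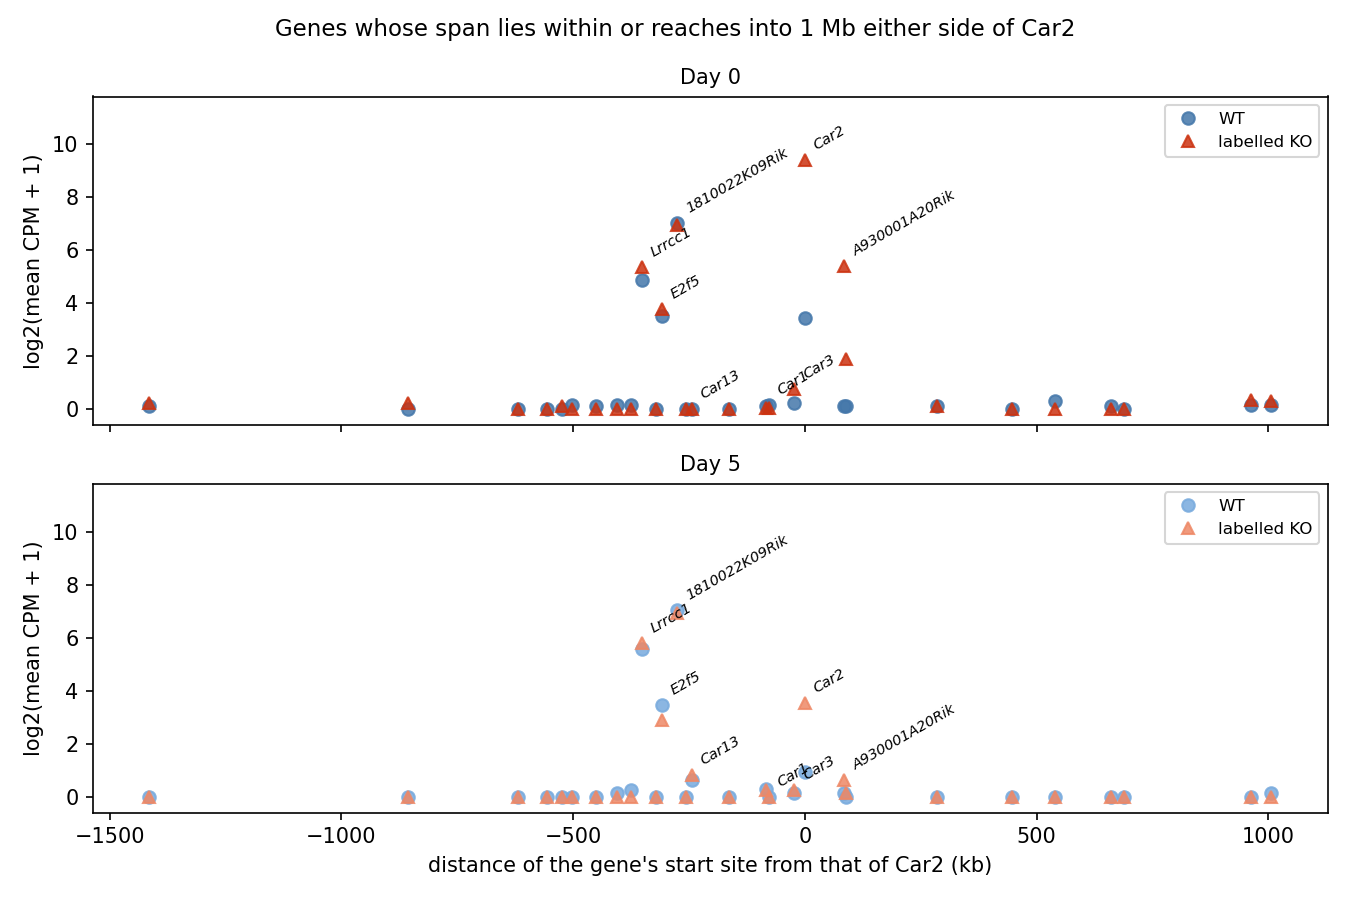
Mean level of *Car2* and the 28 genes within 1000 kb of it, as log2(mean CPM + 1) on the vertical axis, against the distance of each start site from that of *Car2* in kb, at day 0 (upper panel) and day 5 (lower panel), with circles for WT and triangles for the KO-labelled libraries. At day 0 the triangles leave the circles at *Car2*, at *A930001A20Rik*, which starts 84.9 kb from the *Car2* start, and at the overlapping *Gm7132*, while the circles and triangles of *Lrrcc1*, *E2f5* and *1810022K09Rik* lie close together.

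The cytosolic carbonic anhydrases next to *Car2* stayed at or near 0. *Car3* (chromosome 3, 14863512 to 14872523), an isozyme of low activity best known from muscle and fat, ends 13.8 kb before the start of *Car2* on the same strand. It had 2 and 0 counts in WT and 1 and 7 counts in the KO-labelled libraries at day 0, and 1 and 0 against 1 and 1 counts at day 5. A single library held most of its counts, and the ratio of summed levels at day 0 was 2.34 with a 95% counting interval of 0.467 to 22.6. *Car1* (chromosome 3, 14766216 to 14808368), an abundant red cell isozyme, had 0 and 1 counts in WT and 1 and 0 counts in the KO-labelled libraries at day 0, and 0 counts at day 5.

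*Car13* (chromosome 3, 14641727 to 14663002), a further cytosolic isozyme, had 0 counts in the 4 day 0 libraries. After culture there were 2 and 3 counts, or 0.353 and 0.723 CPM, in WT and 4 and 4 counts, or 0.736 and 0.757 CPM, in the KO-labelled libraries. All day 5 libraries thus lay above all day 0 libraries at a very low level. Against a floor of 3 counts over the group, the day 5 level was at least 1.70-fold higher than that of day 0 in WT and at least 4.26-fold higher in the KO-labelled libraries, without the counting error of the day 5 counts. With it, the exact 95% counting interval of the ratio began at 0.934 in WT, which includes no change, and at 2.72 in the KO-labelled libraries. The floor of 3 counts over the group was 0.300 CPM in WT and 0.175 CPM in the KO-labelled libraries at day 0, and the upper end of the exact 95% interval for 0 counts was 0.368 and 0.216 CPM. The neighbors *Car1*, *Car3* and *Car13* were therefore not detectable at a level near that of *Car2* in the day 0 KO-labelled libraries.

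Both mitochondrial isozymes had low counts. *Car5b* (chromosome X, 163976822 to 164027997, minus strand), which provides bicarbonate inside mitochondria in many tissues, had 1 and 0 counts in WT and 1 and 2 counts in the KO-labelled libraries at day 0. Counts at day 5 were 14 and 12, or 2.47 and 2.89 CPM, in WT and 36 and 34, or 6.62 and 6.44 CPM, in the KO-labelled libraries. The day 5 libraries lay above all day 0 libraries, and the day 5 KO-labelled libraries lay above those of WT. Summed levels at day 5 were 26.5 times those of day 0 in WT, with a 95% counting interval of 4.36 to 1090, and 37.2 times in the KO-labelled libraries, with an interval of 12.2 to 185. The fitted log2 difference of day 5 from day 0 was 4.48 in WT. Over the alternatives it ran from 3.76 to 7.02, the latter without WT day 0 replicate 1. In the KO-labelled libraries it was 5.02, with 4.08 without KO day 0 replicate 1 and 5.94 without KO day 0 replicate 2. At day 5 the fitted log2 difference of the KO-labelled libraries from WT was 1.29 (SE 0.50).

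*Car5a* (chromosome 8, 121916126 to 121944904, minus strand), the mitochondrial isozyme best known from liver, is not among the 7 genes and had a different pattern. It had 0 and 2 counts in WT and 22 and 11 counts, or 1.89 and 2.02 CPM, in the KO-labelled libraries at day 0. In the day 5 libraries it had 1 and 1 counts in WT and 17 and 18 counts, or 3.13 and 3.41 CPM, in the KO-labelled libraries. On both days the KO-labelled libraries lay above WT without overlap, and the gene passed the filter on low counts only through them. The ratio of summed levels was 9.66 (95% counting interval 2.47 to 83.1) at day 0 and 16.0 (interval 4.12 to 138) at day 5. The difference did not pass at day 0 (log2 fold change 3.14, SE 0.90, FDR 0.125) and passed narrowly at day 5 (3.87, SE 0.87, FDR 0.048) in the edgeR quasi-likelihood test, Benjamini-Hochberg adjusted. The day 5 call was lost when any 1 of the 8 libraries was left out (FDR 0.0542 to 0.337 in edgeR), with scaling by library totals (FDR 0.0538) and with a replicate block in the fit (FDR 0.0603). The day 0 difference passed without the filter on low counts (3.17, FDR 0.033 in edgeR), and it was 2.05 without WT day 0 replicate 1 and 6.60 without WT day 0 replicate 2. DESeq2 gave no adjusted p for *Car5a* at either day. *Car5a* shares 23.45% of its exon length with *BC048644* on the other strand, which had 1 and 2 counts in WT and 27 and 7 counts in the KO-labelled libraries at day 0 and 3 and 0 against 8 and 9 counts at day 5, so the 2 genes cannot be fully told apart.

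*Car12* (chromosome 9, 66713686 to 66766845, plus strand) encodes a membrane isozyme with its active site outside the cell. It had 62 and 64 counts, or 11.1 and 14.5 CPM, in WT and 194 and 48 counts, or 16.6 and 8.81 CPM, in the KO-labelled libraries at day 0. The day 5 libraries held 174 and 116 counts, or 30.7 and 28.0 CPM, in WT and 305 and 390 counts, or 56.1 and 73.8 CPM, in the KO-labelled libraries. At day 0 the genotypes overlapped, with the 2 KO-labelled libraries on either side of WT. At day 5 the KO-labelled libraries lay above WT, and both lay above all day 0 libraries.

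The fitted log2 difference of *Car12* between the KO-labelled libraries and WT was 0.05 (SE 0.29) at day 0, and it was -0.53 without KO day 0 replicate 1 and 0.42 without KO day 0 replicate 2. At day 5 it was 1.14 (SE 0.26). The difference of day 5 from day 0 was 1.21 (SE 0.28) in WT and 2.30 (SE 0.27) in the KO-labelled libraries, and the genotype by day difference was 1.09 (SE 0.39). Without KO day 0 replicate 1 the last value was 1.67 and the culture difference of the KO-labelled libraries 2.89, and without KO day 0 replicate 2 they were 0.71 and 1.96. *Car12* was thus higher after culture and *Car2* lower, in both genotypes.

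*Car9* (chromosome 4, 43506966 to 43513729, plus strand), a membrane isozyme with an extracellular active site that was not among the 7 genes, rose in culture in both genotypes. It stood at 0.894 and 0.452 CPM in WT and 0.944 and 0.918 CPM in the KO-labelled libraries at day 0, and at 5.47 and 8.19 CPM in WT and 9.57 and 11.7 CPM in the KO-labelled libraries at day 5. The day 5 libraries did not overlap those of day 0, and *Car9* passed the filter on low counts only through them. The log2 fold change from day 0 to day 5 was 3.24 (SE 0.51, FDR 0.000202) in WT and 3.48 (SE 0.43, FDR 2.63e-05) in the KO-labelled libraries in edgeR with Benjamini-Hochberg adjustment, beside 48.3% and 50.2% of all tested genes called in those comparisons. The genotypes were not called different at either day (FDR 0.845 and 0.447 in edgeR). *Car9* shares 9.29% of its exon length with *Gm12454*, which also rose from day 0 to day 5, by 2.66 (SE 0.51) in WT and 2.25 (SE 0.39) in the KO-labelled libraries on the log2 scale (edgeR FDR 0.000952 and 0.000409) and likewise passed the filter through the day 5 libraries.

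The other family members added few counts. *Car11*, which encodes a related protein without catalytic activity (chromosome 7, 45699843 to 45704682), had 2 and 1 counts in WT and 1 and 1 counts in the KO-labelled libraries at day 0 and 0 counts at day 5, so no fold change is given. The cytosolic *Car7* stood at 3.40 and 2.26 CPM in WT and 5.15 and 4.77 CPM in the KO-labelled libraries at day 0. At day 5 it stood at 1.59 and 2.17 CPM in WT and 0.92 and 2.46 CPM in the KO-labelled libraries, where it fell (log2 fold change -1.55, SE 0.51, FDR 0.0219 in edgeR). That call was lost without KO day 0 replicate 1 (FDR 0.0829), without KO day 5 replicate 1 (FDR 0.207) and in DESeq2 (FDR 0.0816). *Car14*, a membrane isozyme, ranged from 0.678 to 2.65 CPM and was called in none of the 5 comparisons, with edgeR FDR between 0.499 and 1. The membrane-anchored *Car4* and *Car15*, the secreted *Car6*, and *Car8* and *Car10*, related proteins without activity, did not pass the filter on low counts. Of the 9 family members outside the 7, 4 were tested. Of these, 0 were called between genotypes at day 0, beside 1.80% of all tested genes, and 1 (*Car5a*) at day 5, beside 1.63%. In culture 1 (*Car9*, higher) was called in WT, beside 48.3%, and 2 (*Car9* higher, *Car7* lower) in the KO-labelled libraries, beside 50.2%. The genotype by day term was called for 0, beside 0.159%. At an unadjusted edgeR p under 0.05, 1 of the 4 passed at day 0, beside 13.8% of all tested genes, and 0 in the genotype by day term, beside 12.4%, and DESeq2, which gave no adjusted p for 1 of them at day 0 and for all 4 at day 5 and in the genotype by day term, called 0 in each.

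The make-up of the family by library differed between groups. *Car2* held 38.0% and 28.3% of the counts of the 16 genes in WT at day 0, with exact 95% binomial intervals of 30.7 to 45.7% and 20.7 to 37.0%. It held 96.2% and 97.0% in the KO-labelled libraries at day 0, 2.02% and 2.11% in WT at day 5, and 12.9% and 8.67% in the KO-labelled libraries at day 5. Besides *Car2*, the gene with the most counts in every library was *Car12*. Per kilobase of exon, the mean of *Car12* was 1.68 CPM per kb in both genotypes at day 0, 3.86 in WT at day 5 and 8.55 in the KO-labelled libraries at day 5. At day 5 *Car12* thus stood above *Car2* per kilobase in both genotypes, at 3.86 against 0.381 and at 8.55 against 4.39 CPM per kb. *Car5b* reached 0.422 CPM per kb in WT and 1.03 CPM per kb in the KO-labelled libraries at day 5, and *Car1*, *Car3*, *Car11* and *Car13* stayed between 0 and 0.325 CPM per kb in all groups.

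**Figure D3:**
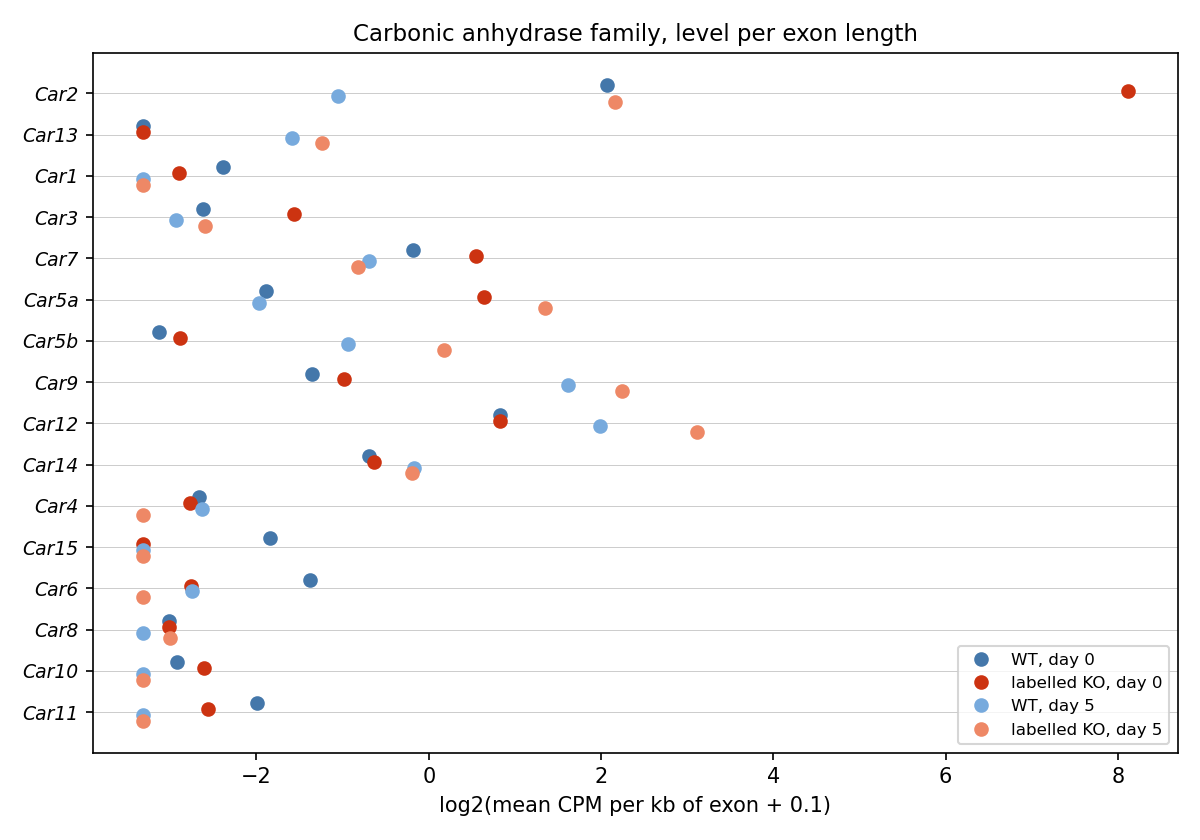
Mean level of the 16 carbonic anhydrase genes per kilobase of exon in each group, as log2(mean CPM per kb + 0.1) on the horizontal axis, with 1 row per gene, cytosolic isozymes above and related proteins without activity below, and 1 colored point per group. *Car2* in the KO-labelled libraries at day 0, at 278 CPM per kb, stands far to the right of every other point, and *Car12* at day 5 in the KO-labelled libraries, at 8.55 CPM per kb, is the highest value of any other family gene.

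Genes that act with carbonic anhydrases were taken from lists of related function. Of 26 bicarbonate and proton transporters and their partners, 13 were tested. At day 0, 1 was called between genotypes, beside 1.80% of all tested genes. It was *Slc4a7*, which encodes a sodium bicarbonate cotransporter, at 9.30 and 9.27 CPM in WT and 19.6 and 21.7 CPM in the KO-labelled libraries (log2 fold change 1.15, SE 0.24, FDR 0.0303 in edgeR). The call was lost without WT day 0 replicate 1 (FDR 0.211) or 2 (FDR 0.201), KO day 0 replicate 1 (FDR 0.0552) or 2 (FDR 0.0855), and KO day 5 replicate 1 (FDR 0.0539) or 2 (FDR 0.0541). At day 5 *Slc4a7* stood at 14.6 and 19.0 CPM in WT and 12.9 and 15.5 CPM in the KO-labelled libraries, and the groups overlapped.

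At day 5, 1 of the 13 was called between genotypes, beside 1.63% of all tested genes. It was *Hvcn1*, the voltage-gated proton channel, at 73.0 and 72.5 CPM in WT and 113 and 114 CPM in the KO-labelled libraries (0.65, SE 0.13, FDR 0.0295 in edgeR). Its FDR rose above the threshold in a fit of the 4 day 5 libraries alone (0.0622) and when any 1 of the WT or day 5 libraries was left out (0.0538 to 0.267 in edgeR). At day 0 *Hvcn1* was at 241 and 285 CPM in WT and 215 and 203 CPM in the KO-labelled libraries, and it fell in culture by 1.85 (SE 0.13) in WT and by 0.87 (SE 0.13) in the KO-labelled libraries on the log2 scale (edgeR FDR 2.19e-07 and 0.000109). The genotype by day term was 0.98 (SE 0.18, FDR 0.0565 in edgeR), and it passed in DESeq2 (FDR 0.00143) and without the filter on low counts (FDR 0.0154). *Hvcn1* shares 44.18% of its exon length with *Tctn1* on the other strand, and the reads of that stretch cannot be told apart. *Tctn1* stood at 160 and 194 CPM in WT and 148 and 137 CPM in the KO-labelled libraries at day 0, and at 64.4 and 59.3 against 79.6 and 93.5 CPM at day 5, the same order of groups as *Hvcn1*.

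In culture, 4 transporters were called higher and 4 lower in each genotype, with 5 not called, beside 48.3% of all tested genes in WT and 50.2% in the KO-labelled libraries. The median log2 fold change of the 13 was -0.16 in WT and -0.23 in the KO-labelled libraries, against -0.04 and -0.05 over all tested genes. *Slc16a3*, which encodes a lactate and proton exporter, rose from 0.257 to 0.918 CPM over the 4 day 0 libraries to 32.3 to 62.7 CPM over the 4 day 5 libraries (5.81, SE 0.39, FDR 1.15e-07 in WT; 6.86, SE 0.36, FDR 9.39e-09 in the KO-labelled libraries, edgeR), and it passed the filter on low counts only through the day 5 libraries. Over the alternatives the *Slc16a3* values ran from 5.57 to 6.21 in WT and from 5.96 to 7.70 in the KO-labelled libraries. *Bsg*, which encodes the partner protein of such exporters, rose by 2.79 (SE 0.49) and 2.31 (SE 0.47) on the same scale (edgeR FDR 5e-04 and 0.00143). *Slc26a6*, an anion exchanger that moves bicarbonate, fell by 1.89 (SE 0.37) in WT and by 1.33 (SE 0.34) in the KO-labelled libraries, the latter with an edgeR FDR of 0.00604 that rose to 0.0676 without KO day 5 replicate 2.

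Of 9 carboxylases and related enzymes that use bicarbonate, 8 were tested and 0 were called between genotypes at either day, beside 1.80% of all tested genes at day 0 and 1.63% at day 5. Of the 8, 2 had an unadjusted edgeR p under 0.05 at each day, beside 13.8% of all tested genes at day 0 and 14.1% at day 5, and DESeq2, without an adjusted p for 1 at day 0 and 2 at day 5, called 0. In culture 1 was higher and 3 lower in WT, beside 48.3% of all tested genes called, and 4 were higher and 1 lower in the KO-labelled libraries, beside 50.2%, so the shares lay near those of all genes. *Pcx*, pyruvate carboxylase, rose from 0.715 and 0.904 CPM to 16.9 and 9.40 CPM in WT and from 1.12 and 1.28 CPM to 20.8 and 27.3 CPM in the KO-labelled libraries (4.02, SE 0.46, and 4.33, SE 0.38, edgeR FDR 1.44e-05 and 1.42e-06), and it passed the filter only through the day 5 libraries. *Mccc1*, a subunit of the carboxylase of leucine breakdown, fell by 0.64 (SE 0.20) and by 0.95 (SE 0.19). The WT decrease lost its call without WT day 0 replicate 1 (edgeR FDR 0.0708), WT day 0 replicate 2 (0.0735) or WT day 5 replicate 1 (0.183). Of 8 aquaporins, channels for water and small solutes, 3 were tested, and 0 were called between genotypes, beside the same 1.80% and 1.63%. Of the 3, 0 had an unadjusted edgeR p under 0.05 at day 0, beside 13.8%, and 1 at day 5, beside 14.1%, and DESeq2, without an adjusted p for 1 at day 5, called 0. *Aqp9* rose from 2.15 to 5.20 CPM over the day 0 libraries to 116 to 186 CPM over the day 5 libraries (5.41, SE 0.35, in WT and 5.38, SE 0.33, in the KO-labelled libraries). *Aqp3* fell by 0.90 (SE 0.32) and by 1.69 (SE 0.35), and the WT decrease lost its call without WT day 0 replicate 1 (edgeR FDR 0.217), WT day 5 replicate 1 (0.0843) or replicate 2 (0.15), without the filter (0.0508) and in DESeq2 (0.103). In the genotype by day term, beside 0.159% of all tested genes, edgeR called 0 of the transporters, carboxylases and aquaporins. There 5 of the 13 transporters, 3 of the 8 carboxylases and 0 of the 3 aquaporins had an unadjusted edgeR p under 0.05, beside 12.4% of all tested genes, and DESeq2 called 1 transporter, *Hvcn1*, and gave no adjusted p for 7, 4 and 2 of the lists.

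**Figure D4:**
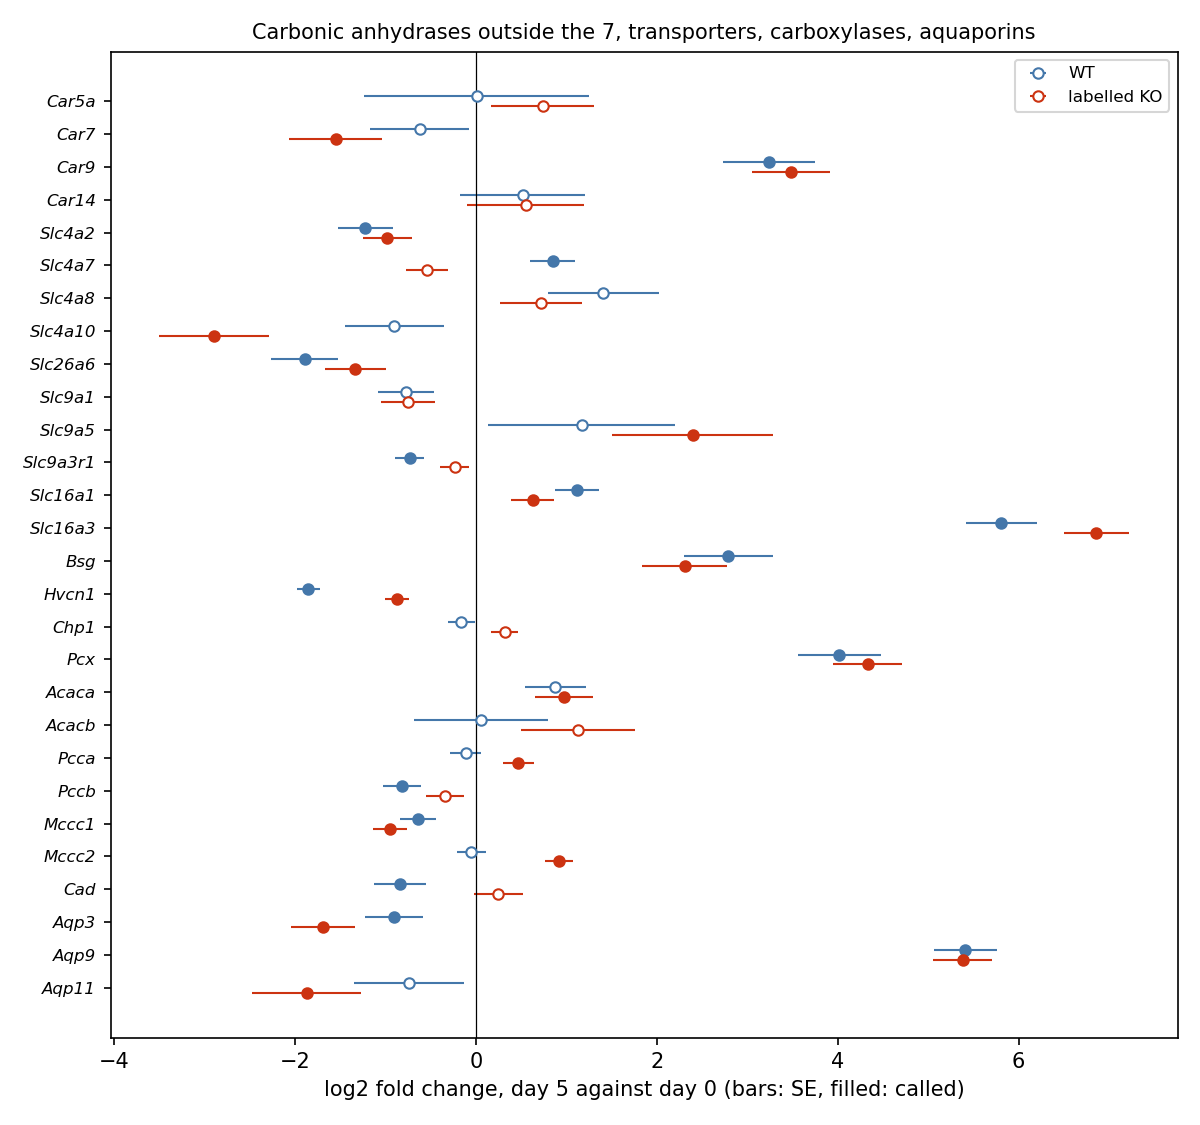
Log2 fold change from day 0 to day 5 for the tested carbonic anhydrases outside the 7, transporters, carboxylases and aquaporins, with WT in blue, the KO-labelled libraries in red, bars for the SE and filled points for genes called at an FDR under 0.05. *Slc16a3* (5.81 and 6.86), *Aqp9* (5.41 and 5.38), *Pcx* (4.02 and 4.33) and *Car9* (3.24 and 3.48) lie far to the right in both genotypes.

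The genes whose log2 CPM followed that of *Car2* most closely over the 8 libraries were ranked by Pearson correlation among 12596 genes, as a description. They share the libraries, and *Car2* spans 9.11 on the log2 scale over them. The 10 highest were *Fbxo38* (0.98), *Ptpn4* (0.977), *Mprip* (0.973), *Gm44175* (0.972), *2810474O19Rik* (0.97), *Rnf41* (0.964), *Asxl2* (0.963), *Gm37335* (0.963), *Atp6v0d2* (0.961) and *Tpm1* (0.96), and 110 genes lay above 0.9. Their range was far narrower than that of *Car2*. *Ptpn4*, a tyrosine phosphatase, stood at 30.2 and 24.0 CPM in WT and 97.4 and 103 CPM in the KO-labelled libraries at day 0, and at 18.0 and 14.5 CPM against 33.3 and 41.3 CPM at day 5. *Atp6v0d2*, a subunit of the proton pump that is abundant in osteoclasts, had 5 and 3 counts in WT and 67 and 25 counts in the KO-labelled libraries at day 0, and 2 and 0 against 6 and 2 counts at day 5. Both genes were highest in the day 0 KO-labelled libraries, as *Car2* was. The 5 lowest correlations were those of *Rer1* (-0.984), *Gm13139* (-0.972), *Pus7* (-0.971), *Nupl1* (-0.969) and *Prpf39* (-0.968), and 88 genes lay below -0.9. *Rer1*, which retains proteins in the endoplasmic reticulum, stood at 72.8 and 66.7 CPM in WT and 42.9 and 42.2 CPM in the KO-labelled libraries at day 0.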

How the data were processed

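Total RNA of sorted cells was extracted with Trizol and a Direct-zol kit and made into libraries with an NEBNext Ultra RNA kit, per the labels. The authors deposited raw counts of reads for every gene symbol in 8 libraries, not normalized and not pooled. The submitters' processing notes name HISAT2 2.1.0, HTSeq 0.11.1 and the mm10 (GRCm38) build; the annotation and the strand setting are not given in the sources used here. Total gene counts were 4170126 to 11117971 per library, and 21.2 to 24.5% of records were assigned to genes.

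Groups came from the sample titles. Counts of all 8 libraries entered a single edgeR 4.0.16 quasi-likelihood fit (R 4.3.3) with a mean per group, TMM factors and the default filter (minimum count 10), which left 12597 of 34404 genes with a count; the common biological coefficient of variation was 15%. Tests were two-sided, with Benjamini-Hochberg adjustment (FDR) over all tested genes and calls at an FDR under 0.05. Each edgeR SE is the absolute log2 fold change divided by the square root of the quasi-likelihood F statistic. It is not a separate standard error of the estimate, and it can understate the error where a group holds few counts. CPM used TMM-scaled totals, correlations were taken on log2 CPM (prior count 2), and ratios of summed counts carry exact 95% conditional binomial intervals. Intervals and the floor of 3 counts cover counting error only. Symbols were matched to GENCODE M21 (46394 matched). Replicates differed by more than sampling noise (chi-square per degree of freedom 4.69 to 9.40) and were kept apart.

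The 7 genes and all lists were chosen with earlier results of these data known. Named were the 7 genes, listed genes called between genotypes or in the genotype by day term, the 3 largest changes per pathway list called in culture in both genotypes, every gene with a count within 1000 kb of *Car2*, *Satb1*, and the 10 highest and 5 lowest correlations with *Car2*. *BC048644*, *Gm12454* and *Tctn1* were added because they overlap a named gene, and single markers were named, after their values were seen, where they made up a list's sum or ran against it. Alternatives were DESeq2 1.42.0 and its size factors, library totals, no filter, the 4 libraries of a comparison alone, a replicate block, and leaving out each library.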

Additional observations from a re-analysis of the deposited data

Results flagged for a closer look

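The genotype difference changed between the days for 2 of 48 tested genes of the lists and the neighborhood, carbonic anhydrases left out, by the test of the genotype by day term itself, beside 0.159% of all tested genes. *Hvcn1* (FDR 0.0565) and *Ikzf2* (FDR 0.0597) missed the threshold in edgeR and passed in DESeq2 (FDR 0.00143 and 0.000336) and without the filter on low counts (FDR 0.0154 and 3.51e-07). *Cd8a* (0.65, SE 0.15, FDR 0.122) missed it in edgeR and passed in DESeq2 (FDR 0.013). Without WT day 5 replicate 1 the term was -2.60 for *Ikzf2* and 0.75 for *Cd8a*. For *Satb1* the term was -1.34 on the log2 scale (SE 0.21, FDR 0.0269, edgeR with Benjamini-Hochberg adjustment), with the KO-labelled libraries above WT at day 0 and below WT at day 5. It did not pass without WT day 0 replicate 1 (FDR 0.156) or 2 (0.23), KO day 0 replicate 1 (0.0501), WT day 5 replicate 2 (0.0556), or KO day 5 replicate 1 (0.177) or 2 (0.123). For *Ctla4* the term was -3.47 (SE 0.38, FDR 0.00794, edgeR), from 3.22 and 2.71 CPM in WT and 40.3 and 21.7 CPM in the KO-labelled libraries at day 0 to 295 and 272 against 276 and 262 CPM at day 5. It did not pass without WT day 0 replicate 1 (FDR 0.0992) or 2 (0.0704). The cause was not tested.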

How the results depend on the processing

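The log2 fold changes of *Car2* kept their direction in every alternative and ranged from 5.85 to 6.37 at day 0, 3.37 to 3.63 at day 5, -3.63 to -3.11 in culture in WT, -6.17 to -5.85 in the KO-labelled libraries and -2.87 to -2.35 for the genotype by day difference. *Car5b* at day 0 ranged from -0.15 to 3.28, on 1 to 3 counts a group, and its genotype by day difference from -1.99 to 1.42. Without the filter on low counts 434 genes were called at day 0 (227 in the fit as reported), 418 at day 5 (205) and 154 in the genotype by day term (20). DESeq2 called 350 at day 5 and 144 in the genotype by day term; the cause was not tested for either setting. Leaving out 1 library gave 38 to 276 calls at day 0, 32 to 249 at day 5, 4630 to 6240 in culture in WT (6081 as reported), 4669 to 6510 in the KO-labelled libraries (6325) and 0 to 41 in the genotype by day term. Where 1 library of a group remained, it was assumed to vary like the other groups. Scaling by library totals moved the median log2 fold change in culture from -0.04 to -0.17 in WT and from -0.05 to -0.23 in the KO-labelled libraries, where 2755 genes were then higher and 3936 lower in place of 3296 and 3029.

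With the replicate number as a block (replicate block), 216, 215, 5999, 6291 and 29 genes were called at day 0, at day 5, in culture in WT, in culture in the KO-labelled libraries and in the genotype by day term. The numbers are shared by the labels only, and same-numbered libraries deviated together with a correlation of 0.118 in WT and 0.228 in the KO-labelled libraries. Beside *Car5a* at day 5, no named call was lost under it. The depth, at 0.0858 to 0.241 CPM a count, left *Car1*, *Car3*, *Car11* and *Car13* near the floor of 3 counts. Counts of called genes per list moved by over 1.5 times in 45 instances under an alternative and stayed within that in 300.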
